A study of Mus musculus with 4 samples.

Results

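The water channels Aqp1, Aqp7 and Aqp8 and the carbonic anhydrases Car2 and Car4 were followed through 4 single-cell RNA libraries of sorted mouse cardiac endothelial cells (ECs). These 5 genes, of 27998 in the gene table, were chosen for the levels they have in these same data, so the levels below are a description and carry no test. Aqp1, Aqp7 and Car4 were higher in coronary cells at each later stage from E15 on, Aqp8 was detected mainly in the few cells with valve markers at P2, and 50% of the Car2 molecules at E12 lay in a small set of cells loaded with hemoglobin RNA.

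Aquaporins form membrane channels. Aqp1 is the classic water channel of red cells and of continuous capillary endothelium. Aqp7 belongs to the aquaglyceroporins, which also pass glycerol, and is known from fat cells and from capillary endothelium. Aqp8 is a water channel of epithelia such as those of gut and pancreas and also passes ammonia. Carbonic anhydrases interconvert carbon dioxide and bicarbonate. Car2 is the abundant cytosolic enzyme of red cells, whereas Car4 is held at the outer face of the plasma membrane by a lipid anchor and is a known surface enzyme of heart and lung capillaries.

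The study collected CD31+/CD45- cells, the fraction that carries an endothelial surface protein and lacks the leukocyte one, from hearts of C57Bl6J mice at embryonic days 12 (E12) and 15 (E15), at postnatal day 2 (P2) and at 8 weeks (adult), with no treatment or transgene named in the labels. Each stage was 1 library, made from the pooled hearts of 37 (E12), 48 (E15), 21 (P2) or 6 (adult) animals, so no value has a biological replicate. All cells were frozen after the sort and thawed, dead cells were removed with a kit at E12 and E15 and by a second sort at P2 and in the adult, the postnatal hearts had an additional collagenase digestion, and red cells were lysed in adult hearts alone. Stage and handling therefore cannot be told apart.

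The values are counts of UMIs, the molecular tags that mark single captured RNA molecules. After removal of cells beyond the study's limits and of likely doublets, 5296, 5499, 5532 and 3992 cells were kept in stage order from E12 to the adult, with medians of 1211, 978, 4437.5 and 1474.5 UMIs per cell. Levels are given as CPM, the UMIs of a gene per 1000000 UMIs of all genes in a group of cells, with exact 95% Poisson intervals, and ratios with exact conditional binomial intervals. Both cover counting error only. Among barcodes taken as cells, between 25 and 60 were shared by any pair of libraries, against 33.0 to 48.4 for barcodes drawn independently. Of the 6062 barcodes called at E15, however, 5996 (98.9%) were also present among E12 barcodes with too few UMIs to be taken as cells. The counts for called barcodes therefore do not show that the E12 and E15 libraries are independent. Whether RNA passed between libraries was not tested.

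Cells were placed in classes by marker UMIs. Endocardial cells line the chambers and had more Npr3 and Tmem108 than Fabp4, Cldn5 and Aplnr UMIs. Coronary cells had at least 2 UMIs of the latter genes and more than of the former. The artery gate asked for at least 3 UMIs of Cxcl12, Glul, Alpl and Nebl, and the valve gate for at least 2 UMIs of Cldn11 and Enpp2. The artery and valve gates overlap the other classes. Cells with 20 or more UMIs of the hemoglobin genes Hba-a1 and Hba-a2 were held apart, 39, 12, 2 and 5 kept cells in stage order. The endocardial class held 1561, 1933, 1051 and 65 cells, the coronary class 101, 1102, 4281 and 3846, the artery gate 292, 58, 649 and 1749, and the valve gate 18, 41, 388 and 17. Outside the hemoglobin-high set, cells in none of the 4 classes were 62.95%, 43.5%, 2.62% and 1.63% of kept cells in stage order.

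The gates were checked against 6 endothelial markers (Pecam1, Cdh5, Kdr, Tek, Egfl7, Emcn). At least 1 UMI of these was present in 90.9% to 99.9% of coronary cells at each stage. Of endocardial cells 77.3% had one at E12 and 87.6% at E15, and all had one after birth. The coronary class also held a 5-gene lymphatic list (Prox1, Lyve1, Mmrn1, Ccl21a, Flt4), at 806, 532, 989 and 119 CPM in stage order with no gene of the list at 0, beside 50.2, 71.5, 177 and 237 CPM in endocardial cells. Lymphatic cells were not separated from the classes, and their part in the coronary levels was not tested. At P2 the 247 kept cells with at least 4 UMIs of the first 4 of these genes held 121 CPM of Aqp1 (104 to 141), 2.18 CPM of Aqp7 and 5.81 CPM of Car4. In the artery gate the share was 29.1% at E12 and 46.6% at E15, and the gate there held 2418 and 5053 CPM of a list of 6 mesenchymal genes. None of the 292 E12 cells and 15 of the 58 E15 cells of the artery gate were also in the coronary class, against 95.4% at P2 and 99.4% in the adult. The embryonic cells of that gate are therefore named by the gate alone, and the artery ratios below are from P2 and the adult. The adult artery gate took in 43.8% of all kept cells and is a loose gate.

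On mm10, Aqp1 (ENSMUSG00000004655) lies on chromosome 6 at 55336432 to 55348555, Aqp7 (ENSMUSG00000028427) on chromosome 4 at 41033074 to 41048139, and Aqp8 (ENSMUSG00000030762) on chromosome 7 at 123462291 to 123468004. Car2 (ENSMUSG00000027562) lies on chromosome 3 at 14886273 to 14900770 and Car4 (ENSMUSG00000000805) on chromosome 11 at 84957786 to 84966044. All are protein coding, and no other annotated gene overlaps any of them.

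The 250 bases upstream of a RefSeq start (GRCm38.p6) are shown for the members with an entry, because Aqp1, Aqp7 and Car4 were higher together after E15 while Aqp8 followed another pattern. Each runs 5′ to 3′ toward its gene, and capitals mark letters searched on both strands: GGAAG (the core bound by ETS factors, which act on many endothelial genes), CACCC (bound by KLF factors, among them the flow-responsive Klf2), AGATAA (bound by GATA factors, including the erythroid Gata1) and ACGTG (the core of the hypoxia response element). The windows are chr6:55336049-55336298 for Aqp1, chr4:41048137-41048386 on the minus strand for the more upstream of the 2 starts of Aqp7, chr7:123462044-123462293 for Aqp8 and chr11:84957504-84957753 for Car4. The Aqp1, Aqp8 and Car4 windows are on the plus strand.
Aqp1: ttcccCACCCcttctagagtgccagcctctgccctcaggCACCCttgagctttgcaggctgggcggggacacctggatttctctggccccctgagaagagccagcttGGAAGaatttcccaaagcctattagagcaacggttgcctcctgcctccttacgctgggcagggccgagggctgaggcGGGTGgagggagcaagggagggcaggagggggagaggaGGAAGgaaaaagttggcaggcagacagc
Aqp7: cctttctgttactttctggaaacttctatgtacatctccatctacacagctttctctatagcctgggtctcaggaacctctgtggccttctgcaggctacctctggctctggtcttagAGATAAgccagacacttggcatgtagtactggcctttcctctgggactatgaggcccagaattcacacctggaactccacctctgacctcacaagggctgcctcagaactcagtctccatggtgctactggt
Aqp8: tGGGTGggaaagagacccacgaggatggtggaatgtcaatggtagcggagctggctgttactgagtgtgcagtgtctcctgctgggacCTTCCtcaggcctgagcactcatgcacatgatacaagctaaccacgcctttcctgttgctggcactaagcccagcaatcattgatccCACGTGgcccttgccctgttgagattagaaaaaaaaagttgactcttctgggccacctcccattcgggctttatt
Car4: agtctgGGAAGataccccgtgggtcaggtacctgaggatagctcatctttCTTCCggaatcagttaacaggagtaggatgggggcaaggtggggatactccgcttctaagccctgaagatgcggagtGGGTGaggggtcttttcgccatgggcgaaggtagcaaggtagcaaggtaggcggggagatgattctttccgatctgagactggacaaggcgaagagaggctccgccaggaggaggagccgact
The Aqp1 window held 2 matches of GGAAG and 3 of CACCC, the Car4 window 2 and 1, and the Aqp8 window 1 and 1, whereas the Aqp7 window shown held neither and 1 match of AGATAA. The window of the other Aqp7 start, chr4:41047963-41048212, held 1 match of CACCC and none of GGAAG or AGATAA, so the matches of Aqp7 depend on the start. In Aqp8 the palindrome CACGTG gave ACGTG on both strands, so that the pair of matches overlaps. Among all 32817 windows of this length, GGAAG was in 64.1%, CACCC in 52%, AGATAA in 9.99% and ACGTG in 16.6%. For Aqp1 and Car4 the bases directly after the window were not found in a GENCODE M21 transcript of the gene, unlike those of Aqp7 and Aqp8. The Aqp1 and Car4 windows end upstream of the gene positions given above. The matches describe letters and not binding sites. Car2 is named without a sequence.

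Aqp1 was detected at every stage and in all 4 gates, and its coronary level was higher at each stage than at the one before. In coronary cells it was 35.7 CPM at E12 (14.4 to 73.6, 7 UMIs), 143 at E15 (123 to 165), 538 at P2 (528 to 549) and 1769 in the adult (1737 to 1802). No neighbouring intervals overlapped. E12 barcodes with 1 to 100 UMIs, which were not taken as cells, held 138 CPM of Aqp1. The part of RNA free in the cell suspension in the E12 levels was not tested. The coronary level was 4.0 times higher at E15 than at E12 (1.90 to 10.1), 3.77 times higher at P2 than at E15 and 3.29 times higher in the adult than at P2. Depth per cell did not follow this order, with the most UMIs per cell at P2. With each cell thinned at random to 500 UMIs, a UMI of Aqp1 was seen in 2.97%, 8.58%, 21.6% and 39.7% of coronary cells in stage order. The thinning gave the Aqp1 counts the same depth in every cell. The coronary class was still read on all UMIs, so its limit of 2 UMIs was easier to reach in deeper cells. In mesenchymal cells, with no endothelial marker UMI, the thinned share was 0.273% at E12 and 2.01% at E15, at median depths of 1682 and 1334 UMIs.

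The endocardium also held Aqp1, at lower levels after E12. Endocardial Aqp1 was 36.2 CPM at E12 (28.5 to 45.4) and 51.4 at E15 (42.0 to 62.2), then 159 at P2 (149 to 171) and 330 in the adult (245 to 435, 50 UMIs in 65 cells). This class, too, stood higher at each later stage, though the E12 and E15 intervals overlapped slightly. The coronary level over the endocardial level was 0.986 at E12 (0.383 to 2.13) and 2.78 at E15 (2.17 to 3.56), then 3.38 at P2 (3.14 to 3.63) and 5.37 in the adult (4.07 to 7.23). At E12 a difference between the classes was not detectable at this depth. The adult ratio was 3.06 with all called barcodes and 3.09 when the gates were read on 500 UMIs per cell.

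Endocardial cells differed among themselves in Aqp1 at P2. The 294 cells with at least 2 UMIs of Pla2g7 and Prr15 held 47.8 CPM (37.5 to 59.95), against 210 CPM in the other endocardial cells, a ratio of 0.227 (0.177 to 0.289). The 667 cells with at least 3 UMIs of Igfbp5 and Cytl1 held 173 CPM against 134, a ratio of 1.29 (1.11 to 1.52) that was 1.07 (0.874 to 1.29) with the gate read on 500 UMIs. In the adult, 48 of the 50 endocardial Aqp1 UMIs lay in the 43 cells of the Igfbp5 and Cytl1 gate.

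Aqp1 was also present in the valve gate. It reached 485 CPM at E12 (242 to 867, 11 UMIs), 230 at E15 (123 to 393, 13 UMIs), 294 at P2 (272 to 318, 620 UMIs) and 161 in the adult (69.7 to 318, 8 UMIs). These values showed no common direction over the stages, and of the 4 the P2 value alone rested on more than 13 UMIs. The E12 UMIs lay in 6 cells and the E15 UMIs in 6 cells, and the intervals treat UMIs of the same cell as independent counts. Relative to the endocardial cells outside the gate, Aqp1 was 14.3 times higher at E12 (6.82 to 27.2), 4.58 times at E15 (2.36 to 8.19) and 2.12 times at P2 (1.89 to 2.38), and 0.460 times as high in the adult (0.188 to 0.978). The E12 gate also held 2380 CPM of the mesenchymal list, with an endothelial UMI in 72.2% of its 18 cells. All 11 Aqp1 UMIs lay in the 17 cells with 0 to 3 mesenchymal UMIs, but only 1 cell had more, so nothing is read from that. The adult gate held 9725 CPM of that list in 17 cells, and its 8 Aqp1 UMIs lay in the 12 cells also in the coronary class. Within the P2 valve gate, 88 cells with a UMI of Wnt4 or Pthlh held 508 CPM of Aqp1 (449 to 572) and the other 300 cells 221 CPM (198 to 246). That split was chosen after its values were seen.

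**Figure D1:**
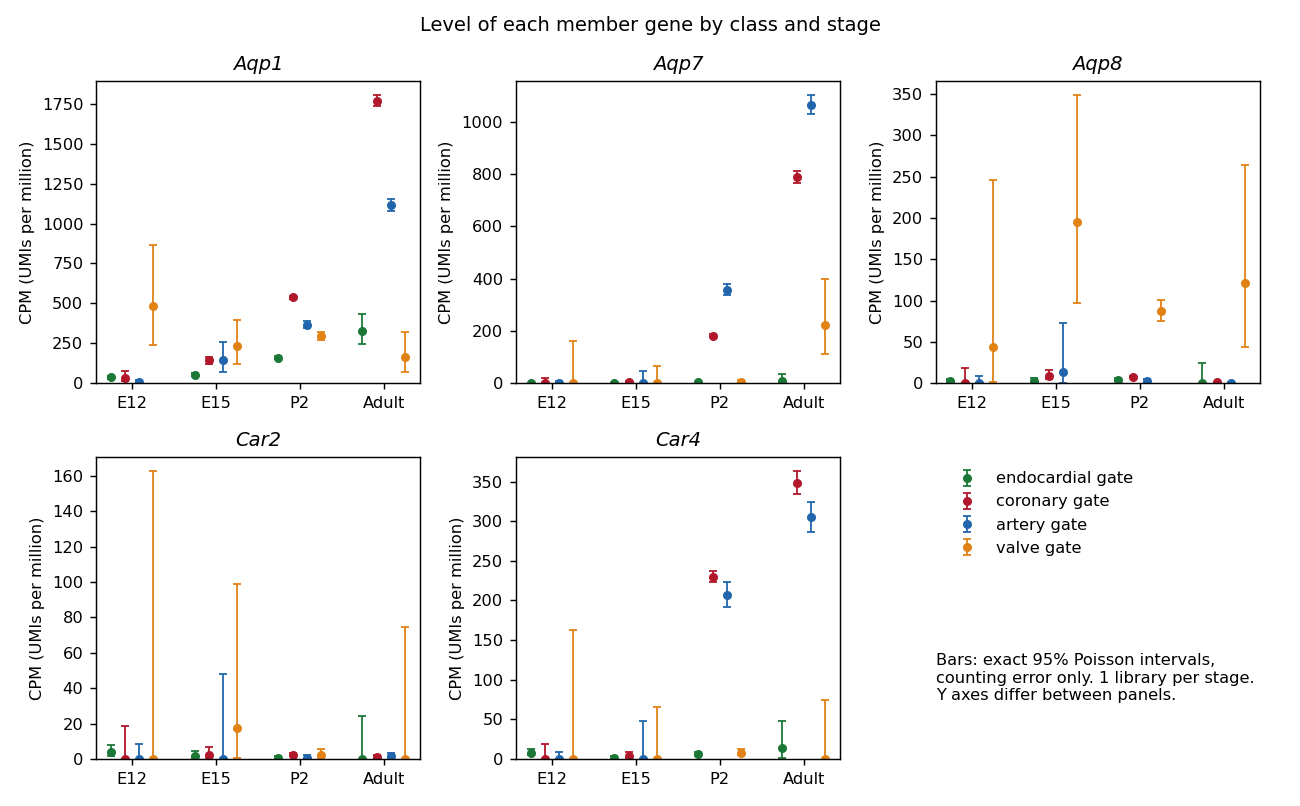
Level of Aqp1, Aqp7, Aqp8, Car2 and Car4 (vertical axes, CPM, with a different range in each panel) by stage, where points are the summed UMIs of the cells in each gate of 1 library and bars are exact 95% Poisson intervals for counting error. In adult coronary cells Aqp1 reached 1769, Aqp7 788 and Car4 348 CPM, while Aqp8 was highest in the valve gate and Car2 stayed under 20 CPM in all 4 gates.

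Aqp7, the glycerol-passing channel, was barely detected in the embryonic libraries and abundant after birth. In coronary cells no UMI was found at E12, which allows up to 15.3 CPM at 3 counts. There were 5 UMIs at E15 (3.86 CPM, 1.25 to 9.0), 3767 at P2 (182 CPM, 176 to 188) and 5037 in the adult (788 CPM, 767 to 811). The adult level was 204 times the E15 level (87.5 to 630), and at least 51.5-fold higher than the E12 level taken at 3 counts. Between P2 and the adult it was 4.33 times higher (4.15 to 4.52). Thinned to 500 UMIs, 0.193% of E15, 9.02% of P2 and 28.7% of adult coronary cells had a UMI. The E15 share equalled 2 cells and is no measure of expression.

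Outside coronary cells Aqp7 was scarce. Endocardial cells held 0 UMIs at E12 and E15, 15 at P2 (3.01 CPM, 1.69 to 4.97) and 1 in the adult. The coronary level over the endocardial one was 60.4 at P2 (36.6 to 108), or 121 with the gates read on 500 UMIs. In the adult it was 120 (21.4 to 4723), where the width comes from that single endocardial UMI. The mesenchymal cells of E12, E15, P2 and the adult had no Aqp7 UMI among 366, 353, 4 and 23 cells. In the adult valve gate Aqp7 reached 222 CPM on 11 UMIs, in a set of 17 cells of which 12 were also in the coronary class.

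Car4, the membrane-anchored carbonic anhydrase, shared the postnatal coronary pattern but differed from the aquaporins between P2 and the adult. In coronary cells no UMI was found at E12 and 5 at E15 (3.86 CPM, 1.25 to 9.0), followed by 230 CPM at P2 (224 to 237) and 348 CPM in the adult (334 to 363). The adult level was 90.3 times the E15 level (38.6 to 278) and 1.51 times the P2 level (1.44 to 1.59). The corresponding adult to P2 ratios of Aqp1 and Aqp7, 3.29 and 4.33, lay outside that interval. The thinned share of coronary cells with a Car4 UMI was 10.6% at P2 and 14.4% in the adult.

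Endocardial Car4 was low throughout, at 7.73 CPM at E12 (4.42 to 12.6, 16 UMIs in 8 cells), 1.47 at E15 (3 UMIs), 5.83 at P2 (29 UMIs) and 13.2 in the adult (2 UMIs). At E12 it was thus found in endocardial and not in coronary cells, although 0 UMIs in the 101 coronary cells allow up to 15.3 CPM, above the endocardial level. E12 barcodes with 1 to 100 UMIs, not taken as cells, held 21.9 CPM of Car4, and the part of free RNA in the endocardial level was not tested. The coronary level over the endocardial one was 39.5 at P2 (27.5 to 59.1) and 26.4 in the adult (7.30 to 218).

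Counted over all genes, 27.9% of the 10758 genes compared were at least 2-fold higher in adult than in E15 coronary cells. Aqp1, Aqp7 and Car4 were the 3 members with enough UMIs to be compared, and all were among them. At P2, 11.5% of 12414 genes were at least 2-fold higher in coronary than in endocardial cells, and 4 of the 5 members were, Aqp8 being the exception. Of 10651 genes compared between the P2 valve gate and the other endocardial cells, 5.18% were at least 2-fold higher in the gate, and of 4 members compared these were Aqp1, Aqp8 and, on 13 UMIs and with an interval of 0.858 to 4.70 for its ratio, Aqp7. The members were chosen on these contrasts and nothing is read from their counts.

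Coronary cells were then divided by further marker gates, each set against the coronary cells outside it. In the capillary gate (Timp4 and Rgcc, at least 3 UMIs) Aqp1, Aqp7 and Car4 were all higher. At P2 Aqp1 was 685 CPM inside and 438 outside, a ratio of 1.57 (1.51 to 1.63). Aqp7 was 315 against 90.6 CPM, a ratio of 3.48 (3.24 to 3.74), and Car4 418 against 101 CPM, a ratio of 4.13 (3.87 to 4.41). In the adult the ratios were 1.78 for Aqp1 (1.71 to 1.85), 1.69 for Aqp7 (1.59 to 1.80) and 2.24 for Car4 (2.04 to 2.47). Read on 500 UMIs per cell, the capillary gate left all 6 ratios above 1, from 1.25 for adult Aqp7 to 3.50 for Car4 at P2. The median depth of cells in the gate was 4371 UMIs at P2 and 1736 in the adult, beside 4435 and 1463 UMIs for all coronary cells.

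The artery gate separated the members. Aqp1 over the coronary cells outside the gate was 0.641 at P2 (0.603 to 0.680) and 0.457 in the adult (0.439 to 0.475). Aqp7 was 357 CPM in the artery gate at P2 and 1064 CPM in the adult, 2.42 (2.25 to 2.59) and 2.17 (2.04 to 2.30) times the level in the other coronary cells. Car4 was 0.892 (0.822 to 0.968) and 0.782 (0.719 to 0.851). In the adult, 2.05% of 10320 genes were at least 2-fold higher in the artery gate and 3.88% at least 2-fold lower. Of the 3 members compared, Aqp7 was in the former set and Aqp1 in the latter, and the choice of members used this contrast. With the gate read on 500 UMIs the adult Aqp1 value was 0.19 and the adult Aqp7 value 1.77, while Car4 was 0.273 at P2, below the Aqp1 value of 0.724 there, and 0.61 in the adult.

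In the large artery gate (Fbln5, Eln and Gkn3, at least 2 UMIs) Aqp1 and Car4 were low, and the Aqp7 ratio was lower at P2 than in the adult. The gate is named by its genes alone. At P2 it took in a sizeable part of the coronary UMIs and is a loose gate. Its limit was the same at coronary medians of 4435 UMIs at P2 and 1463 in the adult, so no change between stages is read from it. Aqp1 was 394 CPM inside and 586 outside at P2, and 287 against 2031 in the adult, ratios of 0.673 (0.641 to 0.706) and 0.141 (0.125 to 0.159). Car4 was 57.7 against 287 CPM at P2 and 24.0 against 406 in the adult, ratios of 0.201 (0.178 to 0.227) and 0.0592 (0.0374 to 0.0890). Aqp7 was 94.9 against 211 CPM at P2, a ratio of 0.450 (0.409 to 0.496), and 792 against 788 in the adult, a ratio of 1.005 (0.929 to 1.09). Read on 500 UMIs, the P2 ratio of Aqp7 was 0.147 and its adult ratio 0.810.

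The vein gate (Vwf and Prss23, at least 3 UMIs) had little Car4 and little Aqp7. Car4 was 14.8 CPM inside and 246 outside at P2, and 16.5 (3 UMIs) against 358 in the adult. Aqp7 was 33.1 against 193 CPM at P2 and 181 against 806 in the adult. Aqp1 was closer to the other coronary cells, at 0.707 (0.648 to 0.770) of their level at P2 and, in adult hearts, 0.869 (0.769 to 0.979). The P2 ratio of Aqp1 was 0.178 with the gate read on 500 UMIs, which left 16 cells.

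In dividing coronary cells (Top2a, Mki67, Ccnb2 and Ube2c, at least 2 UMIs) Aqp7 and Car4 were lower at P2 and Aqp1 was level with the cells outside. Aqp7 was 79.7 CPM inside and 214 outside, a ratio of 0.372 (0.334 to 0.412), and Car4 130.3 against 262, a ratio of 0.498 (0.458 to 0.541). The Aqp1 ratio was 1.03 (0.984 to 1.07). The adult gate held 21 cells, with ratios of 0.501 for Aqp1 (0.364 to 0.673), 0.178 for Aqp7 and 0.521 for Car4. In the angiogenic gate (Kcne3, Apln and Esm1, genes of sprouting vessels, at least 2 UMIs) at P2 the order was alike, with 0.974 for Aqp1 (0.922 to 1.03), 0.594 for Aqp7 (0.529 to 0.665) and 0.621 for Car4 (0.561 to 0.686). Cells of both gates were deep, with medians of 6516.5 and 5967.5 UMIs at P2.

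**Figure D2:**
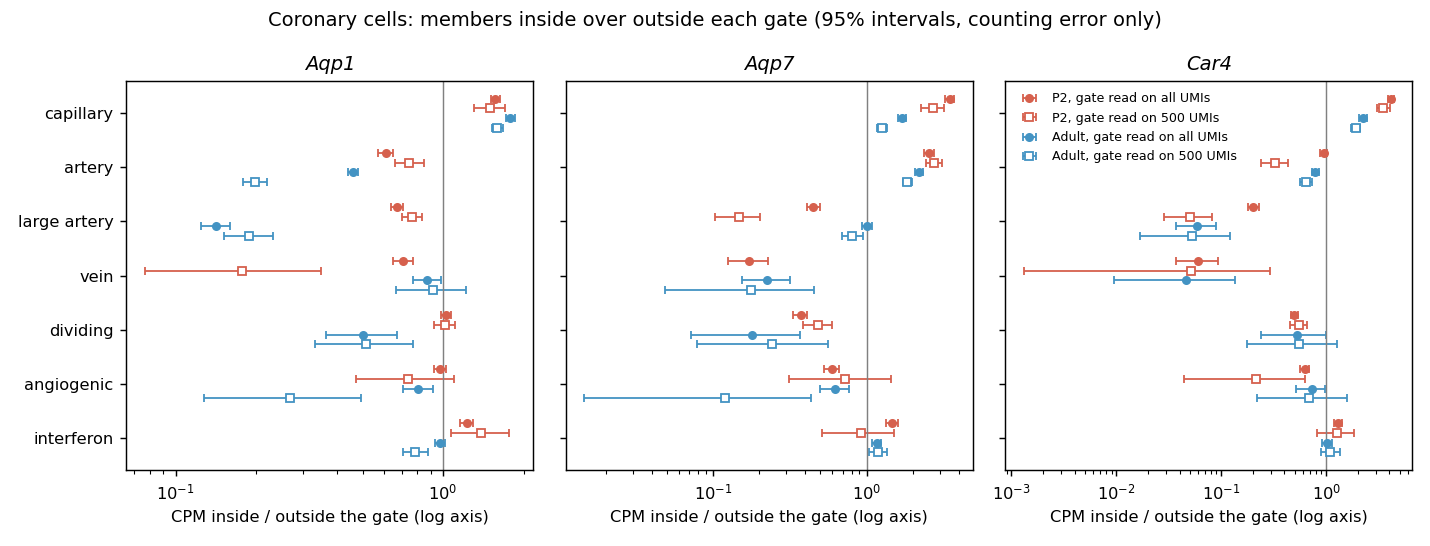
CPM of Aqp1, Aqp7 and Car4 in coronary cells inside each marker gate over coronary cells outside it (horizontal axis, log scale), at P2 (red) and in the adult (blue), with the gate read on all UMIs (filled) or on 500 UMIs per cell (open) and 95% intervals for counting error. All 3 genes lie right of 1 in the capillary gate, Aqp7 alone lies right of 1 in the artery gate, and 2 open vein values of 0 (Aqp7 at P2, Car4 in the adult) cannot be drawn on a log axis.

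The members were also compared cell by cell, in coronary cells thinned to 500 UMIs. At P2 a UMI of Aqp1 was seen in 29.0% of cells with a Car4 UMI and in 20.7% of the others. Aqp7 was seen in 18.5% of cells with Car4 and in 7.89% of the others. In the adult the corresponding shares were 52.2% and 37.6% for Aqp1 and 34.7% and 27.7% for Aqp7. Both aquaporins were thus more often found beside Car4 than without it, except that among P2 cells of the artery gate Aqp1 was seen in 10.0% with Car4 and 13.2% without, with overlapping intervals. The pair of Aqp1 and Aqp7 behaved otherwise, with Aqp7 in 8.65% of cells with Aqp1 and 9.12% of those without at P2, and in 24.0% and 31.8% in the adult. Outside the artery gate the adult shares were 19.8% and 21.8%, and inside it 34.9% and 39.4%. The cells of a stage come from 1 library, so these shares describe cells and not replicates.

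**Figure D3:**
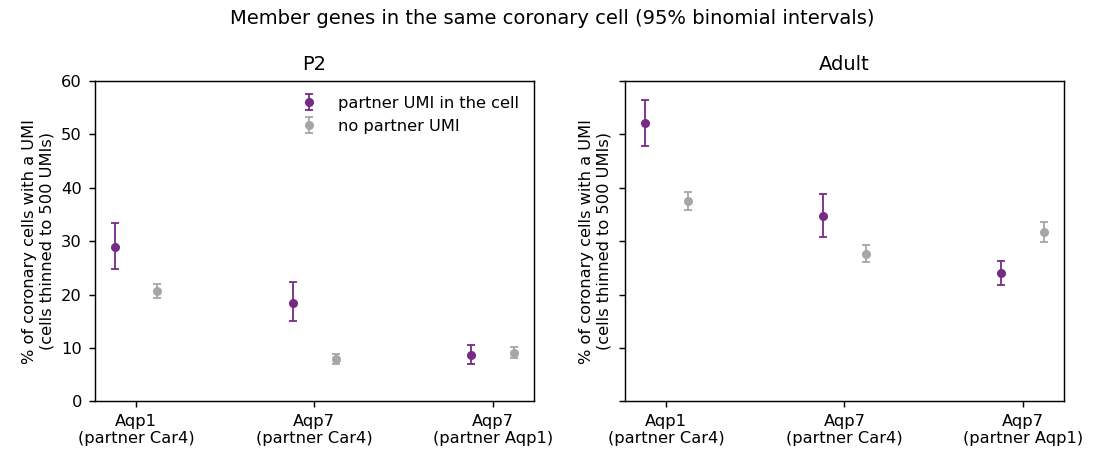
Share of coronary cells with a UMI of Aqp1 or Aqp7 (vertical axis, percent, each cell thinned to 500 UMIs) among cells with a UMI of the partner gene (purple) and without it (grey), at P2 and in the adult, with exact 95% binomial intervals. The purple points lie above the grey ones where Car4 is the partner, and below where Aqp1 is the partner of Aqp7, with overlapping intervals at P2.

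Aqp8 had a small and separate pattern. In the valve gate it was 44.1 CPM at E12 (1 UMI), 195 at E15 (97.2 to 348, 11 UMIs), 86.8 at P2 (74.7 to 100.4, 183 UMIs) and 121 in the adult (44.4 to 264, 6 UMIs). Coronary cells held 0, 9.26, 7.49 and 0.939 CPM in stage order, and endocardial cells 2.41, 2.94, 4.42 and 0. The valve gate was thus the highest of the classes at each stage, on few UMIs except at P2. Against the endocardial cells outside the gate, Aqp8 was 98.8 times higher at E15 (29.3 to 426) and 52.5 times higher at P2 (25.0 to 132). The whole endocardial class held 6 Aqp8 UMIs at E15 and 22 at P2. Of these, 2 at E15 and 15 at P2 lay in valve-gate cells, so the ratios rest on the few that remain. Of the 183 valve-gate UMIs at P2, 147 lay in cells also in the coronary class. That class asks for only 2 UMIs. The 69 P2 cells with an Aqp8 UMI held 1873 CPM of a 4-gene coronary list (Fabp4, Cldn5, Aplnr, Cd36). The other cells held 14540 CPM, and 0 of the 4 genes were higher beside Aqp8. The P2 valve gate held 2138 CPM of this list, against 18220 CPM in the coronary class. These Aqp8 UMIs are thus coronary by the gate alone.

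Few cells carried Aqp8. Outside the hemoglobin-high set it was found in 9, 42, 69 and 2 kept cells in stage order, with 9, 54, 211 and 6 UMIs. The valve gate held 86.7% of these UMIs at P2, 20.4% at E15 and 11.1% at E12. It took in 7.01% of kept cells at P2, 0.746% at E15 and 0.340% at E12. Its limit of 2 UMIs was the same at median depths of 4437.5, 978 and 1211 UMIs, so these shares are not read as a change between stages. At E15, 29 of the 54 UMIs were in cells of none of the 4 classes, which were 43.5% of the kept cells. At P2, 15 cells with at least 5 UMIs each carried 120 of the 211 UMIs, and no cell had more than 11. The signal at P2 was therefore concentrated in a small number of cells.

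Within the P2 valve gate, Aqp8 was uneven. The 204 cells that were also in the coronary class held 125 CPM (106 to 147), the 139 that were also endocardial 20.1 CPM (11.2 to 33.1), and the 45 in neither 111 CPM (68.9 to 170). Of the 155 coronary Aqp8 UMIs at P2, 147 lay in valve-gate cells. The coronary level over the endocardial one, 1.70 at P2 (1.08 to 2.78), was 0.286 with artery and valve cells taken out. It was 0.336 with the gates read on 500 UMIs, and the cause of that second turn was not tested. The P2 cells with an Aqp8 UMI held 1650 CPM of a 5-gene valve list against 162 CPM in the other cells, with all 5 genes higher, but 2 of these genes form the gate.

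Aqp8 was higher in cells with mesenchymal RNA at P2 and in the adult. Kept cells with at least 4 UMIs of the 6-gene mesenchymal list (Col1a1, Col3a1, Pdgfra, Sox9, Dcn, Lum) held 46.2 CPM of Aqp8 at P2 (39.4 to 53.8) against 2.05 in the rest, and 16.9 (6 UMIs) against 0 in the adult. At E15 the order was the opposite, with 1.13 CPM (1 UMI) against 10.6 (7.90 to 13.8). The limit of 4 UMIs took in different cells at the stages, whose kept cells had medians of 978 UMIs at E15 and 4437.5 at P2. Of the 614 E15 cells at or over it, 353 had at least 6 list UMIs and no endothelial UMI. At P2 this held for 4 of 660 cells. The part of depth and of these cells in the opposite order was not tested. In P2 cells with an Aqp8 UMI the list stood at 3979 CPM against 497 in the other cells, with 4 of its 6 genes higher, while the endothelial list stood at 3751 against 4049 CPM. The P2 valve gate as a whole held 2009 CPM of the mesenchymal list with 1 of its genes at 0, 1879 CPM of the lymphatic list, and an endothelial UMI in every cell. Cells of the gate that also carried at least 4 UMIs of Prox1, Lyve1, Mmrn1 and Ccl21a, genes of lymphatic vessels, were 58 in number and held 53.9 CPM of Aqp8 against 93.4 in the other 330. Within the P2 valve gate the 188 cells with at least 4 mesenchymal UMIs held 136 CPM of Aqp8 (115 to 160) and the other 200 cells 36.5 CPM (25.9 to 50.1). The adult valve gate held 9725 CPM of the mesenchymal list. Its 6 Aqp8 UMIs all lay in the 9 of its cells with at least 4 mesenchymal UMIs, and in cells also in the coronary class. The part of mesenchymal RNA in the Aqp8 pattern was not tested beyond these values. These splits were chosen after values were seen.

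Car2 was low in every endothelial class and high in the hemoglobin-high cells of E12. The 39 such cells held 53 Car2 UMIs, 745 CPM (558 to 974), with a UMI in 25 of them. They made up 0.736% of the kept E12 cells and held 50% of the Car2 UMIs. Across the E12 cells Car2 was 6.95 CPM where no Hba-a1 or Hba-a2 UMI was found (43 UMIs), 10.3 with 1 to 4 such UMIs (8 UMIs), 201 with 5 to 19 (2 UMIs in 6 cells) and 745 with 20 or more. The hemoglobin-high cells held 710300 CPM of the erythroid list, and 20.5% had an endothelial UMI. Among all called E12 barcodes, limits and doublet calls aside, 28 of 43 hemoglobin-high cells carried 56 Car2 UMIs.

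Aqp1, the other member known from red cells, was not found in the kept hemoglobin-high cells of E12. No Aqp1 UMI was found in the 39 kept hemoglobin-high E12 cells, and 1 was found in the 43 called ones. Outside this set, the 154 E12 cells with an Aqp1 UMI held 770 CPM of the erythroid list against 338 CPM in the other cells, a ratio of 2.28 (1.92 to 2.68), with 3 of its 10 genes higher. The E12 valve gate held 1234 CPM of that list, with 5 of its genes at 0, against 307 CPM in endocardial cells, and 21 of its 28 erythroid UMIs were Hbb-y. By Hba-a1 and Hba-a2 UMIs, which do not count Hbb-y, Aqp1 was 35.2 CPM in cells with none. It was 17.9 CPM (9.80 to 30.1, 14 UMIs) in cells with 1 to 4. The part of erythroid RNA in the E12 levels of Aqp1 was not tested. At E15, 1 called hemoglobin-high cell carried 5 Car2 UMIs, and the 12 kept ones carried none. In the adult, after red cell lysis, the 5 hemoglobin-high cells held no Car2 and 22 Aqp1 UMIs in 3 cells, and all 5 were also in an endothelial class. The erythroid exchanger Slc4a1 stood at 281 CPM (20 UMIs) in the E12 hemoglobin-high cells.

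**Figure D4:**
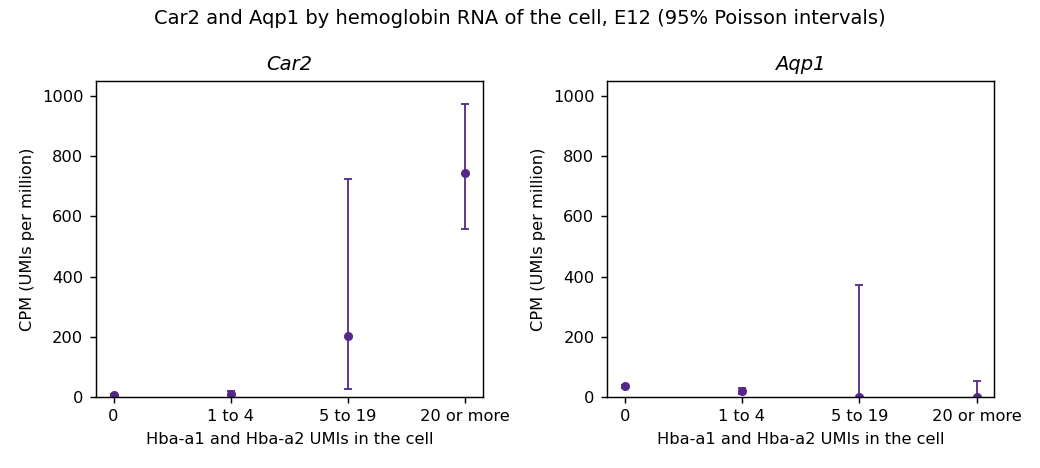
Level of Car2 (left) and Aqp1 (right) in kept E12 cells (vertical axes, CPM) by the number of Hba-a1 and Hba-a2 UMIs in the cell (horizontal axes), with exact 95% Poisson intervals. Car2 reached 745 CPM in the 39 cells with 20 or more hemoglobin UMIs, where no Aqp1 UMI was found.

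With hemoglobin-high cells apart, Car2 in coronary cells was 0 UMIs at E12, 2.32 CPM at E15 (3 UMIs), 2.32 at P2 (1.71 to 3.08, 48 UMIs) and 1.25 in the adult (8 UMIs). Endocardial cells held 3.86, 1.47, 0.402 and 0 CPM in stage order. No order of stages can be read from these counts. At P2 the coronary level was 5.78 times the endocardial one (1.51 to 49.1), which had 2 UMIs.

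The postnatal Car2 UMIs lay partly in cells with RNA of mural cells, the pericytes and smooth muscle that surround vessels. At P2 the 37 kept cells with at least 4 UMIs of a 6-gene mural list (Rgs5, Pdgfrb, Acta2, Tagln, Myh11, Kcnj8) held 15 of the 52 Car2 UMIs, 68.9 CPM (38.6 to 114), against 1.41 CPM (0.992 to 1.94) in the other cells. In the adult 58 such cells held 6 of 8 UMIs, 43.0 CPM (15.8 to 93.6) against 0.304. At E12 the values were 5.40 and 7.79 CPM, and at E15 7.78 (1 UMI) and 2.94, with overlapping intervals at both stages. The 45 P2 cells with a Car2 UMI held 1881 CPM of the mural list against 32.5 in the other cells, with 5 of its 6 genes higher, and 3423 CPM of the lymphatic list against 789, with all 5 genes higher. Lymphatic RNA was higher beside Car2 in the embryo too, at 387 against 80.8 CPM in 49 E12 cells and 1989 against 231 CPM in 18 E15 cells, with 3 of the 5 genes higher at each stage. The mural list was 510 against 585 CPM at E12 and 696 against 192 CPM at E15, with 3 of its 6 genes higher at each. Outside the hemoglobin-high set the erythroid list was 530 against 348.5 CPM at E12, with 5 of its 10 genes higher. It was 66.3 against 52.6 CPM at E15, with 1 higher, and 54.0 against 12.55 CPM at P2, with 3 higher. The mesenchymal list was 1366 against 1359, 2552 against 1359 and 632 against 546 CPM at E12, E15 and P2. Of its 6 genes, 3, 6 and 3 were higher. The part of mural, lymphatic, erythroid and mesenchymal RNA in the low coronary Car2 level was not tested. The split by mural UMIs was chosen after values were seen.

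**Figure D5:**
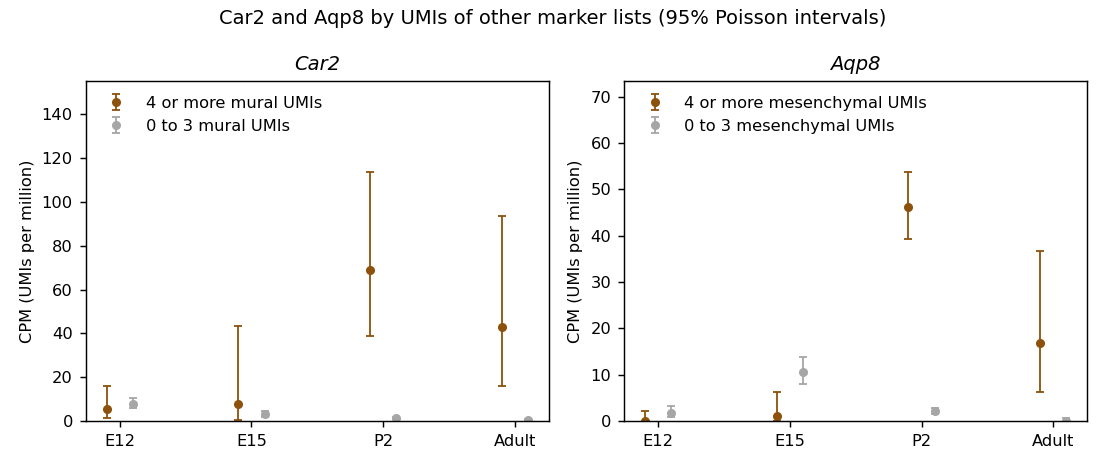
Level of Car2 by UMIs of the mural list (left) and of Aqp8 by UMIs of the mesenchymal list (right), in kept cells of each stage outside the hemoglobin-high set (vertical axes, CPM), with exact 95% Poisson intervals. Cells with at least 4 list UMIs (brown) exceeded the rest (grey) at P2 and in the adult for both genes, and for Aqp8 the grey point was the higher one at E15.

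Of the 9 other aquaporins in the table, Aqp11, an intracellular channel, alone reached 20 UMIs in a class at a stage. It was 3.09 CPM in coronary cells at E15 (4 UMIs), 2.95 at P2 and 8.30 in the adult, and 11.9 in the adult artery gate. Of the 14 other carbonic anhydrases, 6 reached 20 UMIs. The cytosolic enzyme Car7 had a coronary and postnatal pattern as well, with 5.10 (1 UMI), 3.86, 21.6 and 88.0 CPM in coronary cells in stage order, 0.803 in P2 and 6.60 in adult endocardial cells, and 61.2 and 116 CPM in the P2 and adult artery gates. Car8, a relative without catalytic activity, was 51.0, 48.6, 123 and 228 CPM in coronary and 33.3, 88.1, 163 and 152 CPM in endocardial cells. Car3 was found mainly at E12, with 19.3 CPM in endocardial cells. Car9, Car13 and Car5b stayed at or below 5.10 CPM in coronary cells at every stage.

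Acid and lipid handling genes were read from lists drawn up with earlier results of these data known. Of 16 acid and bicarbonate transport genes, 8 could be compared between adult and E15 coronary cells. Slc9a3r2, a scaffold of sodium/proton exchangers, was at least 2-fold higher (217 to 1221 CPM), and the lactate carrier Slc16a3 was at least 2-fold lower (34.0 to 5.79 CPM). Over all 10758 genes compared, 27.9% were at least 2-fold higher and 10.9% at least 2-fold lower. The median log2 difference of the list was 0.16, beside 0.15 over all genes compared. The carrier subunit Bsg went from 410 to 722 CPM, while the bicarbonate carriers Slc4a2 and Slc4a7 and the scaffold Slc9a3r1 were between 9.26 and 26.5 CPM at both stages.

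Of 12 glycerol and lipid genes in the table, 11 could be compared. In adult coronary cells 10 were at least 2-fold higher than at E15 and 1 was at least 2-fold lower, with a median log2 difference of 1.92 beside 0.15 over all genes. The fatty acid receptor Cd36 went from 465 to 3532 CPM, Gpihbp1, which holds lipoprotein lipase at the capillary surface, from 546 to 2353, the lipase Lpl itself from 30.1 to 561, and Mgll, which releases glycerol from monoglycerides, from 77.9 to 785 CPM. Fabp4, a fatty acid carrier and one of the genes that define the coronary class, went from 5822 to 22160 CPM, and its relative Fabp5 from 2775 to 1005 CPM. Aqp7 thus stood beside a list that was mostly higher in the adult. Over all genes compared, 27.9% were at least 2-fold higher and 10.9% at least 2-fold lower.

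The genes whose levels over the 16 values of class and stage were most like a member were found by the Pearson correlation of log2(CPM + 20) among 3352 genes. The 16 values share cells and libraries and include the artery gate at E12 and E15, so the coefficients are a description. The closest were Fez2 (0.893), Rhob (0.891) and Triobp (0.891) for Aqp1, Lims2 (0.99), Tmem255b (0.988) and Adgrg1 (0.986) for Aqp7, and Tspan7 (0.947), Abcb1a (0.93) and Slc28a2 (0.928) for Car4. For Aqp8 they were Rnase1 (0.894), Nkd1 (0.88) and Ccdc141 (0.873). None are named for Car2, whose highest value, 17.7 CPM in the E15 valve gate, was 1 UMI.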

How the data were processed

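Single-cell RNA libraries of sorted cardiac cells were analysed, 1 per stage, with no biological replicate. The authors deposited UMI counts per gene and barcode, which the submitters' processing notes credit to Cell Ranger 2.2 on mm10. The deposited E15, P2 and adult counts hold called barcodes, 6062, 5884 and 4242, whereas the E12 counts hold all barcodes, of which the 5732 with at least 452 UMIs were taken as cells. The total counts of called barcodes were 8122358, 7079759, 29645059 and 7650091 in stage order.

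Cells were removed above the study's limits of UMIs (4000, 3000, 12000 and 5000), detected genes (1500, 1300, 4000 and 2000) and mitochondrial share (10%, 10%, 20% and 20%). Likely doublets were removed by a Scrublet-style nearest-neighbour score above 0.15, with an expected rate of 0.8% per 1000 cells. This took out 2.32% to 6.48% of the barcodes of a stage that were within the limits. Cells with 20 or more UMIs of Hba-a1 and Hba-a2 were held apart from the classes. Mesenchymal cells as named in the report had at least 6 UMIs of the mesenchymal list and no endothelial UMI. CPM is the sum of a gene's UMIs over the sum of all UMIs in the group. For the thinned shares each cell was thinned to 500 UMIs at random, and shallower cells, 0 to 99 in the endocardial and coronary classes and stages, were left out. The classes of these shares were read on all UMIs.

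With 1 library per stage no test between stages was possible. Poisson, binomial and conditional binomial intervals are exact, at 95%, and cover counting error only. A count of 0 was given an upper limit of 3 counts. Genes were compared over the whole table where both groups together held at least 20 UMIs, with a call at 2-fold. The calling step was run on simulated independent Poisson counts, with planted changes larger than 2-fold in genes well above that minimum. That run cannot check calls near 2-fold or near 20 UMIs.

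The genes named are the 5 members, the other aquaporins and carbonic anhydrases with at least 20 UMIs in a class at a stage, up to 6 genes of the acid transport list and of the lipid list by coronary level, and the 3 genes most alike to each member, left out for Car2 because its highest class value was 1 UMI. Gyk, of the 13 lipid genes, is not in the gene table. The members, classes and lists were chosen with earlier results of these data known. The splits by mural, mesenchymal and lymphatic UMIs and by Wnt4 or Pthlh were chosen after values had been seen.

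Gene positions are from GENCODE M21 and promoter windows from RefSeq. Python 3.11.15, numpy 2.4.6, pandas 2.3.3, scipy 1.17.1, scikit-learn 1.9.0 and matplotlib 3.10.9 were used. The alternatives were all called barcodes, no doublet removal, Scrublet's default doublet rate of 0.1, a hemoglobin limit of 5 UMIs or none, cells with an endothelial UMI, gates read on 500 UMIs, stricter gates, artery and valve cells taken out of the other classes, and a mean over cells.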

Additional observations from a re-analysis of the deposited data

Results flagged for a closer look

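Data outside the comparisons held a signal in the E12 barcodes with 1 to 100 UMIs, which were not taken as cells. In these 156821 barcodes Aqp1 stood at 138.4 CPM (113 to 168, 101 UMIs), against 33.5 CPM in the called E12 barcodes. Car2 stood at 30.1 CPM (18.9 to 45.6, 22 UMIs) against 14.3, and Car4 at 21.9 CPM (12.5 to 35.6, 16 UMIs) against 3.45. Of the 6062 barcodes called at E15, 5996 (98.9%) were also present among these low E12 barcodes, with a median of 15 UMIs. Of the P2 and adult called barcodes, 21.4% and 21.2% were present, with a median of 2. Low E12 barcodes called at no other stage had a median of 2 as well, so E15 alone stood out by this measure. Fabp4, a coronary gene, was 1633 CPM in the low barcodes shared with E15, 418 CPM in those called at no other stage and 30.5 CPM in the called E12 cells. Aqp1 was 88.6 CPM in the former and 145 CPM in the latter. The levels of Aqp1, Car2 and Car4 in the low barcodes were above those of the E12 coronary and endocardial classes. Aqp1 in the E12 valve gate was higher still, at 485 CPM. The part of free RNA in the E12 class levels was not tested. The part of RNA from other libraries in the low barcodes was not tested either. No class level in the report counts them, and their own levels are given beside E12 values only.

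Aqp1 moved in opposite directions at P2 and in the adult in coronary cells of an interferon gate (Ifit1, Ifit3, Rsad2, Isg15 and Iigp1, at least 3 UMIs, read on 500 UMIs per cell). Its level inside over outside was 1.38 at P2 (1.07 to 1.76, 20 cells) and 0.788 in the adult (0.706 to 0.877, 144 cells). This gate was picked in a search over members and gates for ratios whose intervals lay on opposite sides of 1 at different stages. The opposite directions were thus the rule of choice and are no evidence of a change. The difference between the stages was not tested, and each stage is 1 library. With the gate read on all UMIs the values were 1.225 and 0.9745.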

How the results depend on the processing

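Of the 136 values of the named comparisons recomputed under the alternatives, 118 stayed the same, 18 moved and 0 turned direction. A ratio was called the same where it stayed within the counting interval of the reported value. The 136 values also include counts of members at or above 2-fold, which have no interval. A count was called the same within 1.5 times the reported count and could not turn direction. Among 146 further values these numbers were 131, 12 and 3. The coronary over endocardial ratio of Aqp1 at P2 (3.38) was 3.11 with all called barcodes, 3.83 with the default doublet rate, 4.22 with gates read on 500 UMIs, 3.79 with stricter gates, 4.5 with artery and valve cells out and 4.02 as a mean over cells, and that of Aqp7 (60.4) was 121 on 500 UMIs. The adult over E15 ratio of coronary Aqp1 (12.4) was 17.4 with artery and valve cells out. The adult artery ratio of Aqp1 (0.457) was 0.483 with all barcodes, 0.419 with the default rate, 0.19 on 500 UMIs, 0.304 with stricter gates and 0.435 as a mean over cells. The artery ratio of Aqp7 at P2 (2.42) was 2.65 with stricter gates and 2.24 as a mean over cells, and in the adult (2.17) 1.77 on 500 UMIs and 2.01 with stricter gates, so that on 500 UMIs 1 artery ratio, in place of 2, stayed at or above 2-fold. Aqp8 turned direction at P2. Its coronary over endocardial ratio went from 1.70 to 0.336 on 500 UMIs and 0.286 with artery and valve cells out, where its artery ratio also went from 0.328 to 5.65. Other values that left their interval by more than 1.5 times the reported value were the adult coronary over endocardial ratio of Aqp1 (3.06 with all barcodes, 3.09 on 500 UMIs), the P2 artery ratio of Car4 (0.273 on 500 UMIs) and the P2 coronary over endocardial ratio of Aqp8 (3.4 with the default rate). The cause was not tested, except that taking valve cells out removes 147 of the 155 coronary Aqp8 UMIs at P2. Leaving out barcodes called in another library or non-coronary artery cells, both chosen after seeing the data, moved no value outside its interval. The former kept the E15 barcodes found among the low E12 barcodes, so it cannot show whether RNA passed between libraries. No paired analysis was possible because each stage had 1 library. Depth limits Car2 and Aqp8 outside the cells named, coronary cells at E12 (101 cells) and endocardial cells in the adult (65 cells).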
